A study of Mus with 15 samples.

Results

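Skeletal muscle sarcomere and metabolism genes were read as a set of 37 genes, chosen by their symbols in a gene count table of mouse skin and wounds. All 37 were found among 55657 gene models, of which 54532 carried a symbol. Of the 37, 36 had enough counts to be tested, as did 17122 models in all, and the gene left out was Tnnc2. The set holds 8 thick filament genes, 8 thin filament genes, 12 genes of the Z-disc, titin and the M-band, 5 genes of calcium handling and excitation, and 4 genes of energy metabolism. By fiber type, 13 were classed as fast fiber genes, 4 as slow fiber genes and 20 as genes of both fiber types. Each of 3 groups had 5 poly-A RNA libraries. Normal skin was unwounded skin of healthy mice, with sham entered as its treatment. Healthy wound was skin from surgical wounds of healthy mice, and diabetic wound was skin from surgical wounds of mice with type I diabetes. Unwounded skin of diabetic mice was not analysed here. The labels state neither strain, age and time after wounding nor how the mice were made diabetic. The series title names engineered mesenchymal stem cells without nuclei, but no group is labelled as having received them. The labels do not say that each library came from a separate mouse, so every p-value here reflects the spread among these libraries, which may be technical.

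Skeletal muscle contracts when myosin thick filaments pull on actin thin filaments inside the sarcomere, which is held together by the Z-disc, titin and the M-band. Calcium released from the sarcoplasmic reticulum binds the troponin complex and starts the pull, and a calcium pump ends it. Fast and slow fibers use different gene copies for myosin and troponin, and fast fibers rely more on glycolysis while slow fibers are rich in myoglobin. Mouse skin lies on a thin sheet of skeletal muscle, the panniculus carnosus, which is largely made of fast fibers and is often taken along with a skin sample.

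The libraries held 15693964 to 17777165 counts each. Levels are given as CPM, the count of a gene after every library is scaled to the same total. Defining markers of the other tissues that the samples could hold were detected in every group. The summed level of 10 keratinocyte genes ranged from 11631 to 54997 CPM in normal skin, from 9453 to 29192 CPM in healthy wound and from 1536 to 26450.1 CPM in diabetic wound, where replicates 4 and 5 were lowest at 1536 and 3444 CPM. The 8 dermal fibroblast genes summed to 42079.9 ± 7967 CPM in normal skin, 55834 ± 27262 CPM in healthy wound and 10505 ± 6596 CPM in the diabetic wounds (mean ± SD of 5 libraries). The 12 adipocyte genes summed to 3833 to 6855 CPM in normal skin and 995 to 3298 CPM in the healthy wounds. In diabetic wound replicates 1 to 5 they summed to 1333, 1373, 1355, 9831 and 7379.6 CPM, so replicates 4 and 5, which between them were highest for most muscle genes in that group, were also highest in adipocyte genes. The part of these differences in tissue content in the muscle gene results was not tested.

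Normal skin devoted 3.51 ± 2.15% of its counts to the 37 genes, the healthy wounds 0.996 ± 0.714% and the diabetic wounds 1.86 ± 1.01% (mean ± SD of 5 libraries). In normal skin replicates 1 to 5 the share was 4.99%, 5.81%, 4.14%, 1.95% and 0.641%. In healthy wound it was 1.21%, 1.41%, 1.85%, 0.253% and 0.259%, and in diabetic wound 1.41%, 2.08%, 0.357%, 2.6% and 2.85%. Each group therefore held libraries with much and with little muscle RNA, and all groups overlapped. In these bulk samples fewer muscle fibers and less RNA per fiber cannot be told apart. Many of the genes, though not all, moved up and down together from library to library. Normal skin replicate 5 was lowest in its group for 31 of the 36 tested genes, and normal skin replicate 2 was highest for 24. Healthy wound replicate 3 was highest for 28 genes, and replicates 4 and 5 were lowest for 18 and 14. Diabetic wound replicate 3 was lowest for 27 genes, while replicates 4 and 5 were highest for 16 and 11, and replicate 5 was also lowest for 8. In that replicate 5 Myh4 was the highest of its group, at 7164 CPM, and Myh2 the lowest, at 3.88 CPM.

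**Figure D1:**
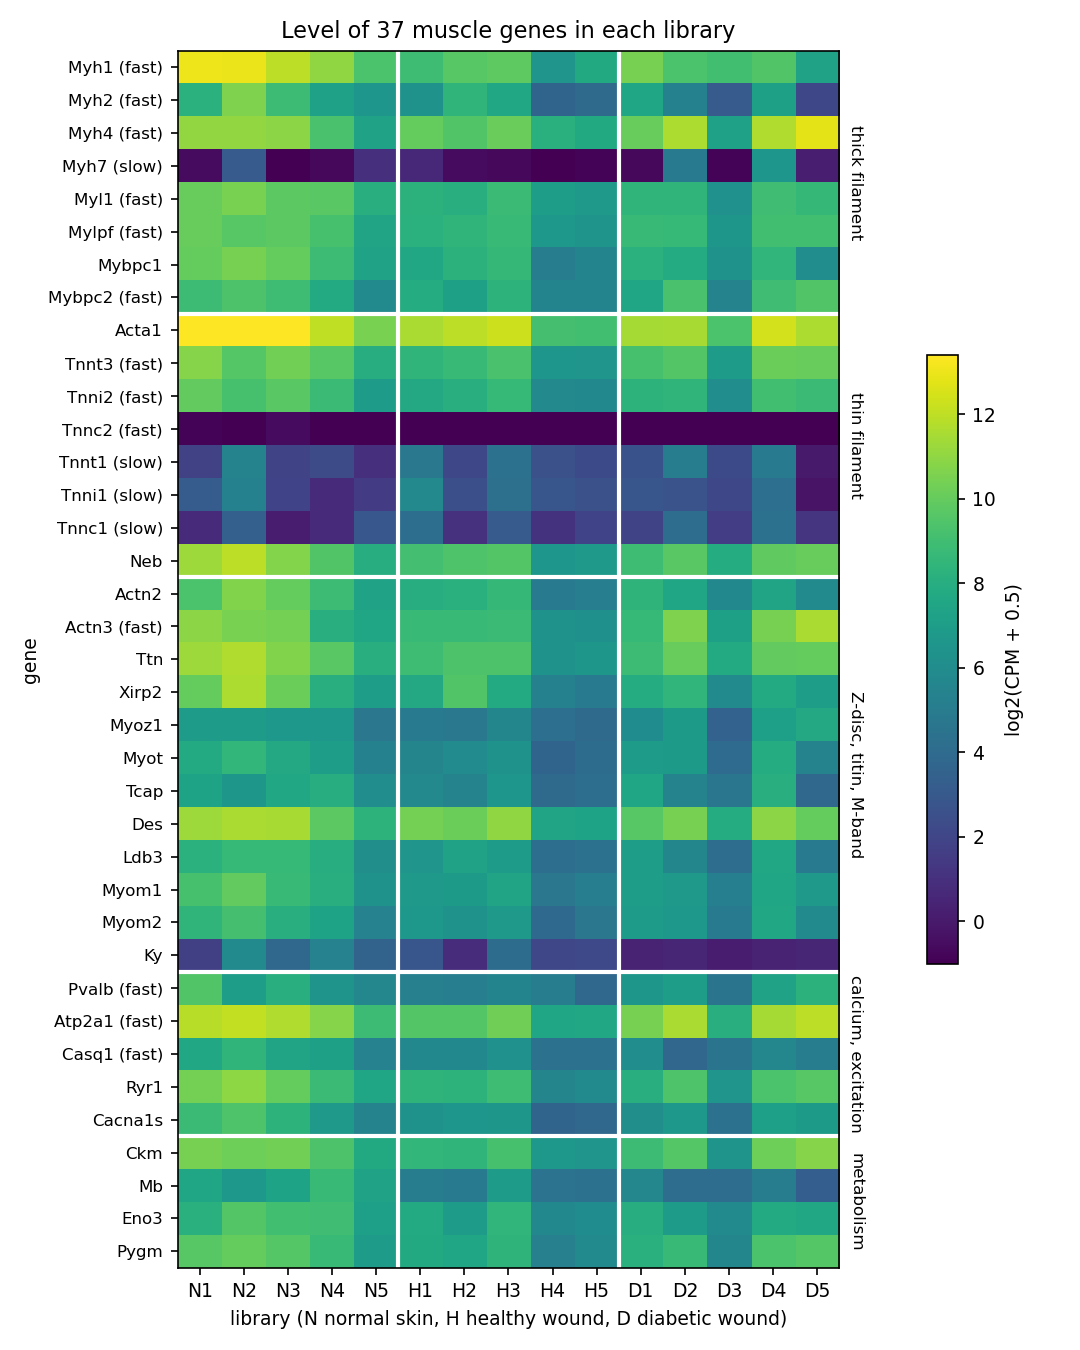
Level of each of the 37 muscle genes (rows, grouped by role, with fast and slow fiber genes marked) in each of the 15 libraries (columns), as log2(CPM + 0.5) in color. Normal skin replicate 5, healthy wound replicates 4 and 5 and diabetic wound replicate 3 are darker, that is lower, than most of their group down most of their columns, while the slow fiber genes and Tnnc2 are among the darkest rows.

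Genes were ranked by level only after division by gene length, as CPM per kb. The ratios of a fast gene to its slow partner, given below, use CPM without this division. In normal skin Acta1 led with 4895 ± 2886 CPM per kb, followed by Atp2a1 at 779 ± 451, Myh1 at 727 ± 549, Mylpf at 662 ± 321 and Tnnt3 at 618 ± 368 CPM per kb (SD, n = 5). These 4 followers lay within each other's spread. All 4 slow fiber genes were among the 6 lowest, together with Ky and Tnnc2, with Tnnt1 at 5 ± 8.03, Tnnc1 at 3.83 ± 4.12, Tnni1 at 3.07 ± 4.53 and Myh7 at 0.23 ± 0.407 CPM per kb. In healthy wound Acta1 again led with 1737 ± 1351 CPM per kb, ahead of Des at 259 ± 213 and Mylpf at 237 ± 142 CPM per kb. In diabetic wound Acta1 stood at 1946 ± 1097 CPM per kb, Atp2a1 at 667 ± 424 and Myh4, 13th in normal skin, followed at 493 ± 449.7 CPM per kb. The order below Acta1 rests on means whose SDs are often as large as the steps between neighbours.

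The first comparison sets healthy wound against normal skin. An effect of wounding and the amount of muscle taken along with each sample cannot be told apart in it. Of the 36 genes tested, 33 had a lower fitted level in healthy wound, and their median log2 fold change was −1.99 over all 36, beside 0.01 over all genes tested. In edgeR's quasi-likelihood test with Benjamini-Hochberg adjustment over all genes, 0 passed an adjusted p under 0.05 in either direction, where 0.350% of all genes tested passed as lower and 0.777% as higher. At an unadjusted p under 0.05, 28 were lower and 0 higher, beside 7.49% lower and 8.82% higher of all genes. DESeq2 called 19 lower, beside 2.87% of all genes. Limma-voom called 1, Mb, beside 0.391% of all genes, and with quality weights 10, beside 5.08%. The 20 genes of both fiber types had a median of −2.05 and the 12 tested fast fiber genes a median of −1.86. The 4 slow fiber genes had a median of 0.37, and their single values ran from −2.86 for Myh7 to 0.67 for Tnni1 and Tnnc1. The positive values depend on single libraries. Without healthy wound replicate 1 Tnnt1 was −0.40, Tnni1 −0.30 and Tnnc1 −0.11, and all 36 genes were negative. Without normal skin replicate 2 they were 1.96, 2.23 and 1.45 in the same order. The sign of Tnnt1, at 0.08 in the main fit, also turned without normal skin replicate 1, 3, 4 or 5 or healthy wound replicate 3. Pvalb was the single gene of the 36 whose groups did not overlap, a share near the 2.80% of all genes that were lower without overlap. Leaving out 1 library brought a gene past the threshold in 4 of 15 fits. These were Myh1 without normal skin replicate 5 (edgeR adjusted p = 0.0491), Mb without healthy wound replicate 3 (0.0446), Pvalb without diabetic wound replicate 3 (0.0409), and Myh1 and Pvalb without diabetic wound replicate 5 (0.0389 and 0.0434).

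The second comparison, diabetic wound against normal skin, found 6 of 36 muscle genes lower and 0 higher (edgeR adjusted p under 0.05), where 8.44% of all genes tested were lower and 10.7% higher. Ky, Mb, Myh1, Actn2, Casq1 and Myom1 were the 6. They included the myosin of one fast fiber type, the oxygen store myoglobin, a calcium-binding protein and 3 genes of the sarcomere's scaffold. The median log2 fold change over the 36 was −0.95, beside −0.01 over all genes tested, with 29 negative and 7 positive values. At an unadjusted p under 0.05, 14 were lower and 1, Myh7, was higher, beside 17.0% lower and 18.8% higher of all genes. The groups of Ky and Mb did not overlap, a share of the 36 near the 5.58% of all genes that were lower without overlap. No gene of the 36 was higher without overlap, where 5.47% of all genes were. DESeq2 called 13 lower, beside 13.5% of all genes, and limma-voom called 4 lower and 0 higher, beside 9.57% and 10.3%. The fast fiber genes ran from −2.75 for Myh1 and Myh2 to 1.08 for Myh4. The count of 6 rests on several libraries: it was 3 without normal skin replicate 1, normal skin replicate 2, diabetic wound replicate 2 or diabetic wound replicate 5, and 10 without normal skin replicate 5. It was also 3 with diabetic wound replicates 4 and 5, the libraries lowest in keratinocyte genes, left out together. Casq1, Ky and Mb were the genes called in that fit.

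The last comparison, diabetic wound against healthy wound, sets the wounds against each other. Here 1 of 36 genes, Ky, was lower and 0 were higher (edgeR adjusted p under 0.05), beside 4.02% lower and 5.13% higher of all genes tested. The median log2 fold change over the 36 was 0.62, beside −0.02 over all genes tested, with 29 positive and 7 negative values. With 1 library left out the median ran from 0.36 without healthy wound replicate 4 to 0.88 without healthy wound replicate 3. The negative values then numbered 5 without healthy wound replicate 3, 12 without healthy wound replicate 4 or 5 and 14 without diabetic wound replicate 4. At an unadjusted p under 0.05, 7 genes were higher, a share of the 36 not far above the 15.0% of all genes. They were Myh4, Myh7, Actn3, Ckm, Pvalb, Atp2a1 and Myoz1. The groups of Ky did not overlap, and those of the other 35 genes did, where 4.86% of all genes were lower and 4.90% higher without overlap. DESeq2 called Ky lower, beside 8.64% of all genes, and 6 of the 7 higher, without Ckm, beside 9.90%. Limma-voom called 0 in either direction, beside 5.17% lower and 4.11% higher. The same 6 passed edgeR's threshold once diabetic wound replicate 3, the diabetic library with the least muscle RNA, was left out. Their adjusted p-values in edgeR were then 0.0082 to 0.041. Healthy wound replicates 4 and 5, whose share of muscle counts was lower still (0.253% and 0.259% against 0.357%), stayed in. In that fit 8.47% of all genes were called higher. Without normal skin replicate 1 or 2, 1 gene was higher, and without normal skin replicate 5, 2 were. With diabetic wound replicates 4 and 5 left out together 0 were called in either direction (edgeR), and Ky then had an adjusted p of 0.103. Both comparisons with normal skin share its libraries, and both comparisons with diabetic wound share those libraries, so their values are given side by side and are not independent.

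**Figure D2:**
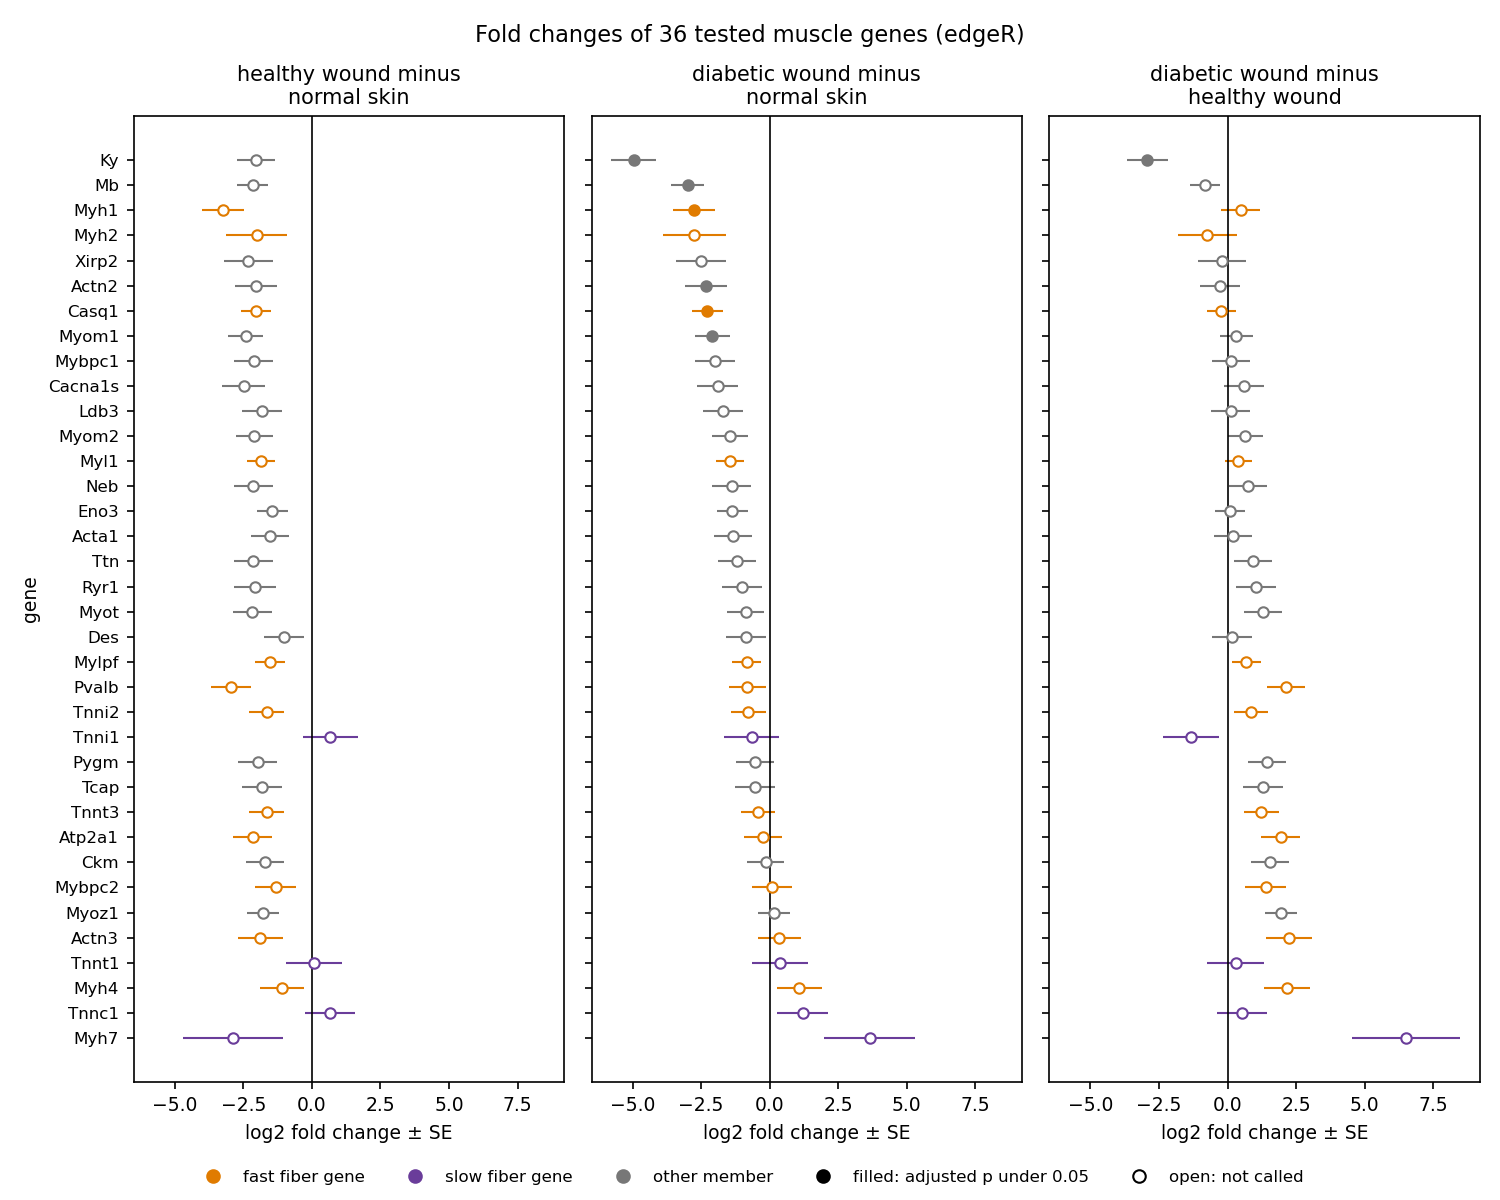
Log2 fold change of the 36 tested muscle genes (rows) in the 3 comparisons (panels), with bars of 1 SE from the edgeR fit; color gives the fiber class and filled points passed an adjusted p under 0.05. Nearly all points lie left of 0 in the first panel, 6 are filled in the second panel and 1, Ky, in the third.

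The main thin filament gene, Acta1, encodes skeletal muscle actin. Acta1 stood at 10811, 10734, 10502, 4091 and 1455 CPM in normal skin replicates 1 to 5, at 3050.3, 4052, 5148, 558 and 532 CPM in healthy wound and at 2846, 2884, 639, 5389.5 and 3189 CPM in diabetic wound. Every wound library was below normal skin replicates 1 to 3, but replicate 5 lay inside the range of both wound groups. The log2 fold change was −1.53 (SE 0.70) in healthy wound and −1.34 (SE 0.70) in diabetic wound against normal skin, with edgeR adjusted p-values of 0.29 and 0.182. Neb, the giant protein that sets thin filament length, was fitted at −2.13 (SE 0.72) and −1.38 (SE 0.71) in the same comparisons, with edgeR adjusted p-values of 0.149 and 0.176. DESeq2 called Neb in healthy wound (adjusted p = 0.0279). In these data Acta1 lies on chromosome 8 from 123891769 to 123894751, minus strand, as the count table gives it, in a genome build that the sources used here do not name.

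Troponin has 3 parts, of which troponin T (Tnnt) anchors the complex to tropomyosin, troponin I (Tnni) is the inhibitory part and troponin C (Tnnc) binds calcium. Tnnt3, the fast fiber troponin T, had 1783, 766, 1295, 805 and 247 CPM in normal skin replicates 1 to 5, 349, 434, 625, 93.7 and 89.1 CPM in healthy wound and 590.2, 736, 126, 1147 and 1061 CPM in diabetic wound. Its groups overlapped, with 4 of 5 normal skin libraries above every healthy wound library. Tnnt1, the slow fiber troponin T, had 3.03, 42.6, 3.4, 4.56 and 1.46 CPM in normal skin, 26.4, 3.85, 20.8, 5.43 and 4.19 CPM in healthy wound and 5.57, 32.6, 4.26, 30.5 and 0.538 CPM in diabetic wound. Normal skin replicate 2 alone carried a high level of Tnnt1 in its group, whereas in each wound group 2 libraries were above 20 CPM.

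Tnni2, the fast fiber troponin I, had 982, 581, 827, 446 and 119.7 CPM in normal skin replicates 1 to 5, 206, 260.2, 394, 53.5 and 53.3 CPM in healthy wound and 320.1, 348, 67.5, 536 and 448 CPM in diabetic wound. Normal skin replicates 1 to 4 were above every healthy wound library, and replicate 5 was not. Tnni1, the slow fiber troponin I, had 8.7, 39.8, 3.17, 1.13 and 2.44 CPM in normal skin, 55.2, 5.11, 19.2, 6.85 and 5.51 CPM in healthy wound and 6.68, 6.04, 3.89, 18.9 and 0.358 CPM in diabetic wound. Its high libraries were normal skin replicate 2 and healthy wound replicate 1, and the groups overlapped. The log2 fold change in healthy wound against normal skin was −1.64 (SE 0.64) for Tnni2 and 0.67 (SE 1.00) for Tnni1, neither past the threshold (edgeR adjusted p = 0.21 and 0.833). The positive sign of Tnni1 rests on healthy wound replicate 1: without it the value was −0.30. Without normal skin replicate 2 the value of Tnni1 was 2.23.

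Tnnc1, the slow fiber troponin C, had 1.14, 10, 0.576, 1.13 and 7.07 CPM in normal skin replicates 1 to 5, 17.6, 1.61, 8.22, 1.7 and 3.16 CPM in healthy wound and 3.34, 17.4, 2.59, 21.3 and 1.73 CPM in diabetic wound. The groups overlapped, and the high libraries included healthy wound replicate 1 and diabetic wound replicates 2 and 4, which were also high in Tnnt1. The whole span of Tnnc1 lies within Nisch, a gene on the opposite strand with 68200 counts over the 15 libraries, and the kit does not mark the strand, so reads of the 2 genes cannot be told apart where their exons overlap. Tnnc2, the fast fiber troponin C, had 1 count in normal skin replicate 1, 3 in normal skin replicate 3 and 0 in the other 13 libraries. Its model overlaps Ube2c, on the opposite strand, over 59.2% of its span, and Ube2c had 7157 counts. The count of Tnnc2 is therefore uncertain, and its pair with Tnnc1 carries no information on fiber type.

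A fast gene was also set against its slow partner within each library. Where the slow partner is near the added 0.5 CPM, as Tnni1 is at 0.358 CPM in diabetic wound replicate 5, the ratio still follows the amount of the fast gene. The log2 ratio of Tnnt3 to Tnnt1, each as CPM + 0.5, was 8.98, 4.15, 8.37, 7.32 and 6.98 in normal skin replicates 1 to 5, 3.70, 6.64, 4.87, 3.99 and 4.26 in healthy wound and 6.61, 4.48, 4.74, 5.21 and 10 in diabetic wound. The ratio was lower in healthy wound than in 4 of the 5 normal skin libraries, and normal skin replicate 2 lay among the wounds. The difference in means, healthy wound minus normal skin, was −2.47, with a two-sided exact permutation p of 0.0476 that became 0.254 after adjustment over the 12 tests of 4 pairs and 3 comparisons. Tnni2 to Tnni1 gave −2.81 for the same groups (exact permutation p = 0.0397, adjusted 0.254), and 2.24 for diabetic minus healthy wound (exact p = 0.0635, adjusted 0.254). Its log2 ratio was 6.74, 3.85, 7.82, 8.10 and 5.36 in normal skin, 1.89, 5.54, 4.32, 2.88 and 3.16 in the healthy wounds and 5.48, 5.74, 3.95, 4.79 and 9.03 in the diabetic wounds. The smallest p that 5 against 5 libraries allow is 0.00794, and none of the 12 tests passed after adjustment. All these ratios lay above 0, so the fast troponin exceeded its slow partner in counts in each of the 15 libraries.

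**Figure D3:**
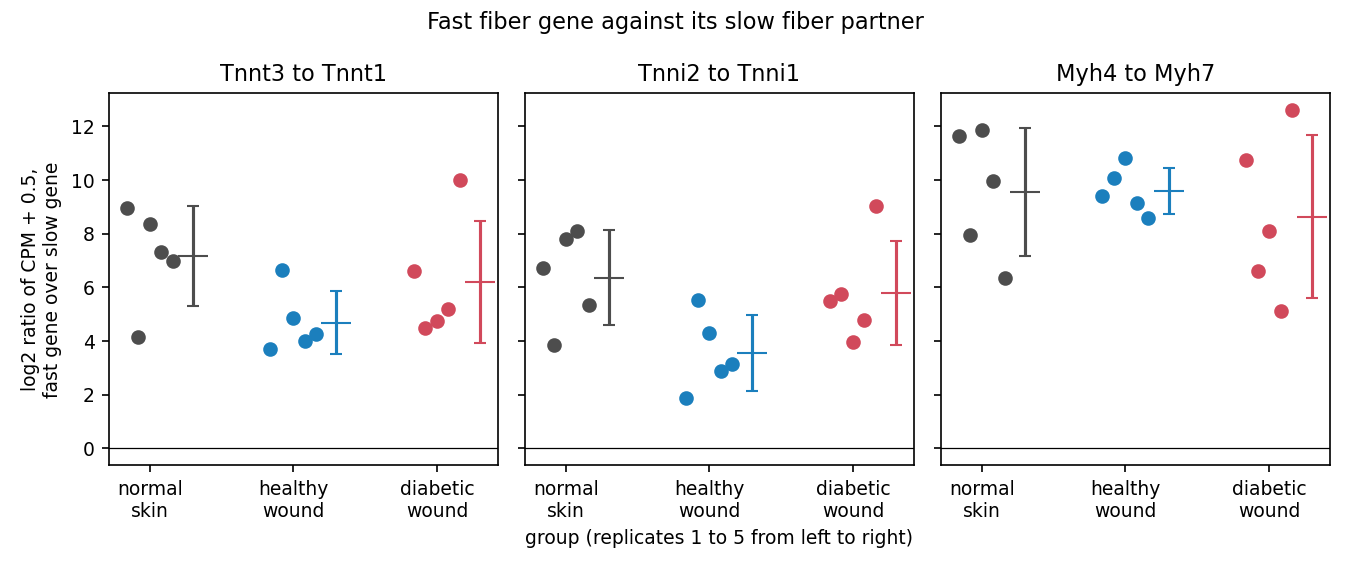
Log2 ratio of a fast fiber gene to its slow fiber partner (CPM + 0.5) in each library, for troponin T, troponin I and myosin heavy chain (panels); points are replicates 1 to 5 from left to right and bars give the mean ± SD of 5 libraries. The healthy wound mean of the troponin T ratio, 4.69, lies below the normal skin mean of 7.16, and the groups overlap in all 3 panels.

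The thick filament is built from myosin heavy chains, and their gene sets the speed of a fiber: Myh4 is the gene of the fastest fibers (type IIb), Myh1 of type IIx, Myh2 of type IIa and Myh7 of slow fibers. Myh1 had 8313, 8116, 3971, 2061 and 635 CPM in normal skin replicates 1 to 5, 491, 816, 923, 91.7 and 217 CPM in healthy wound and 1394, 633, 533, 717 and 154 CPM in diabetic wound. Normal skin replicates 1 to 4 were above every wound library, and replicate 5 lay within both wound groups. Myh1 was 6.74-fold lower in diabetic wound than in normal skin (log2 fold change −2.75, SE 0.76, adjusted p = 0.0228 in edgeR). Over 27 other settings its adjusted p ran from 0.000569 to 0.0878, and it was 0.0506, 0.0504, 0.0531 and 0.0505 without normal skin replicate 1, normal skin replicate 2, diabetic wound replicate 2 and diabetic wound replicate 5. In healthy wound it was 9.38-fold lower (−3.23, SE 0.77) without passing in edgeR (adjusted p = 0.0561), while DESeq2 (0.000216) and limma-voom with quality weights (0.012) called it.

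Myh4 had 2149, 2147, 1873, 619 and 159 CPM in normal skin replicates 1 to 5, 1035, 723, 1100.0, 281 and 215 CPM in healthy wound and 1068, 3143, 153, 3301 and 7164 CPM in diabetic wound. Diabetic wound replicates 2, 4 and 5 exceeded every library of the other groups, while replicate 3 was the lowest of all 15. The log2 fold change was −1.09 (SE 0.81) in healthy wound and 1.08 (SE 0.81) in diabetic wound against normal skin, and 2.17 (SE 0.84) between the wounds, with edgeR adjusted p-values of 0.579, 0.354 and 0.105. Between the wounds it passed without diabetic wound replicate 3 (edgeR adjusted p = 0.034) and in DESeq2 (0.0255). Without diabetic wound replicate 5 the value against normal skin was 0.45.

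Myh2 had 292, 1549, 467, 149.9 and 93.5 CPM in normal skin replicates 1 to 5, 84.9, 349, 201, 12 and 15.4 CPM in healthy wound and 186, 39, 8.27, 146 and 3.88 CPM in diabetic wound. Normal skin replicate 2 was the highest library, and 3 healthy wound and 3 diabetic wound libraries were below the lowest of normal skin. Myh7 had 0.172, 8.16, 0, 0.113 and 1.46 CPM in normal skin, 1.03, 0.172, 0.115, 0 and 0.0574 CPM in healthy wound and 0.124, 31.7, 0.0617, 95.3 and 0.657 CPM in diabetic wound. Slow myosin was thus near 0 in most libraries, and its 3 highest levels were in diabetic wound replicates 4 and 2 and normal skin replicate 2. The log2 fold change of Myh7 between the wounds was 6.50 (SE 1.98, edgeR adjusted p = 0.0518), and without diabetic wound replicate 4 it was 4.88. It passed the threshold without normal skin replicate 2 (adjusted p = 0.0365), without diabetic wound replicate 3 (0.0267) and in DESeq2 (0.00397). Myh2, Myh1 and Myh4 lie side by side on the plus strand of chromosome 11, at 67171027 to 67197517, 67200052 to 67224575 and 67238029 to 67260446. Their coding sequences are near-identical in long stretches, so the split of reads among them depends on the authors' counting and is uncertain, and an antisense gene, Myhas, overlaps 54.3% of Myh1.

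The make-up of the myosin heavy chains was then taken within each library, as the share of each gene in the summed CPM per kb of Myh1, Myh2, Myh4 and Myh7. This measure was chosen after the values were seen and carries no test. Myh4 made up 20.9%, 19.3%, 31.1%, 22.9% and 19% in normal skin replicates 1 to 5, 65.8%, 40.4%, 51.3%, 74.3% and 49.6% in healthy wound and 42%, 82.8%, 23.1%, 79.2% and 98% in diabetic wound. Every healthy wound library was above every normal skin library, and in diabetic wound replicate 3 alone fell within the range of normal skin. The share of Myh1 was 70.4 ± 5.26% in normal skin, 36.8 ± 10.1% in the healthy wounds and 32.4 ± 30.5% in the diabetic wounds (mean ± SD of 5 libraries). Within the muscle RNA that each library held, Myh4 over Myh1 per kb ran from 0.265 to 0.498 in normal skin, from 0.936 to 3.23 in healthy wound and from 0.304 to 49.2 in diabetic wound. Myh7 made up at most 0.121% in normal skin, 0.0457% in the healthy wounds and 1.6% in the diabetic wounds. The log2 ratio of Myh4 to Myh7 did not separate the groups, with means of 9.56 ± 2.39, 9.60 ± 0.86 and 8.63 ± 3.04 in the same order (SD, n = 5). Its adjusted p-values in the 3 exact permutation tests were 0.693 to 0.968, and Myh7 is too close to 0 in most libraries for this ratio to be precise.

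**Figure D4:**
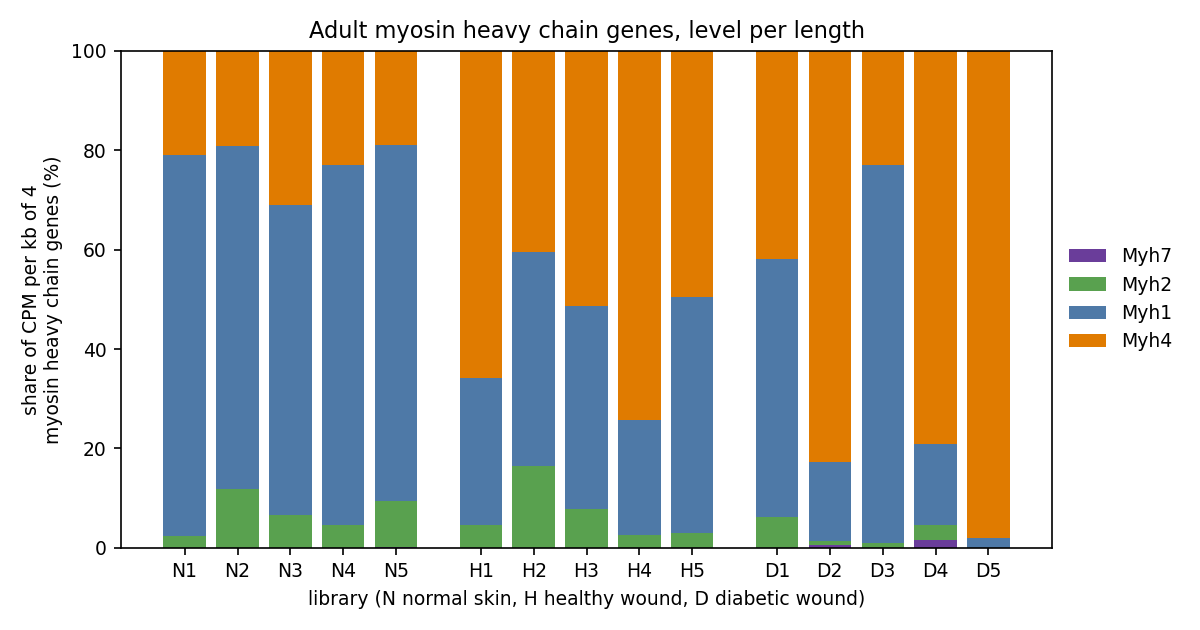
Share (%) of Myh1, Myh2, Myh4 and Myh7 in their summed CPM per kb, 1 stacked bar for each library. Myh1 makes up most of each normal skin bar, Myh4 takes 40.4% to 74.3% of the healthy wound bars, and the diabetic wound bars run from 23.1% to 98% Myh4.

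The other thick filament genes were fitted lower in healthy wound, and edgeR called none of them there. DESeq2 called Myl1 (adjusted p = 0.0081) and Mybpc1 (0.0274), and limma-voom with quality weights called Myl1 (0.0229). Myl1 and Mylpf, the fast fiber myosin light chains, were fitted at −1.85 (SE 0.51) and −1.52 (SE 0.54) on the log2 scale, and at −1.45 (SE 0.50) and −0.83 (SE 0.53) in diabetic wound against normal skin. Mybpc1 and Mybpc2 encode forms of myosin-binding protein C, which braces the thick filament; the Mybpc2 form is made in fast fibers, and Mybpc1, named for slow fibers, was classed here as a gene of both. Mybpc1 ran from 158 to 1401 CPM in normal skin, from 34.1 to 390.0 CPM in healthy wound and from 66.1 to 355 CPM in diabetic wound. Mybpc2 ran from 56.8 to 675, from 44.4 to 322 and from 42.3 to 710.3 CPM. Diabetic wound replicate 5 had the highest Mybpc2 of all libraries, at 710.3 CPM, and at 66.1 CPM less Mybpc1 than any normal skin library. Mybpc2 over Mybpc1 per kb was 0.451 to 0.614 in normal skin, 0.593 to 1.63 in healthy wound and 0.639 to 13.5 in diabetic wound. As for the myosins, this ratio was picked after the values were seen and is given without a test. The sign of Mybpc2 in diabetic wound against normal skin, 0.08 (SE 0.74), turned to −0.01 under upper-quartile scaling.

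Ky gave the largest fold changes among the 6 genes called. Ky encodes the kyphoscoliosis peptidase, a protein of the Z-disc whose loss in mice causes muscle degeneration and a bent spine. Ky had 2.81, 59.6, 14.2, 41.3 and 11.4 CPM in normal skin replicates 1 to 5, 6.8, 1.26, 16.3, 3.62 and 4.07 CPM in healthy wound and 0.804, 0.954, 0.617, 0.805 and 0.956 CPM in diabetic wound. All diabetic wound libraries were below every library of the other 2 groups, and they differed little among themselves, whereas other muscle genes differed several fold among the same libraries. Ky was 31.1-fold lower in diabetic wound than in normal skin (log2 fold change −4.96, SE 0.82, adjusted p = 0.0025 in edgeR) and was called with each of the 15 libraries left out in turn. Of the 27 other settings, limma-voom with quality weights alone ended this call (adjusted p = 0.0902). Against healthy wound it was 7.59-fold lower (−2.92, SE 0.76, edgeR adjusted p = 0.0325), a call held in 8 of 15 fits with 1 library left out. The call was lost without healthy wound replicate 1, 3, 4 or 5 (adjusted p of 0.063, 0.0711, 0.0518 and 0.061) and without diabetic wound replicate 1, 2 or 5 (0.0623, 0.0752 and 0.07). Over the 27 other settings of this comparison the adjusted p ran from 0.000886 to 0.219. In healthy wound against normal skin Ky was fitted at −2.03 (SE 0.70) without passing in edgeR (adjusted p = 0.157), while DESeq2 called it (0.0399). With 10 to 16 counts for Ky in each diabetic wound library, these levels are well above 0 but rest on few reads. Ky lies on chromosome 9 from 102505750 to 102546239, plus strand, and no other gene model overlaps it.

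Actn2 and Actn3 encode alpha-actinins, which crosslink actin at the Z-disc; Actn3 is made in fast fibers. Actn2 had 629.5, 1621, 1029, 463 and 159.8 CPM in normal skin replicates 1 to 5, 251, 282, 383, 30.6 and 34.8 CPM in healthy wound and 324, 182, 52.7, 169 and 56.5 CPM in diabetic wound. The 4 highest normal skin libraries were above every wound library, and replicate 5 was not. In healthy wound against normal skin Actn2 was fitted at −2.04 (SE 0.76) without passing in edgeR (adjusted p = 0.19), while DESeq2 called it (0.0494). Actn2 was 4.97-fold lower in diabetic wound than in normal skin (−2.31, SE 0.77, edgeR adjusted p = 0.0472), the weakest of the 6 calls. The call was lost in 11 of the 15 fits with 1 library left out, namely any of normal skin replicates 1 to 4, healthy wound replicates 1 to 3 and diabetic wound replicates 2 to 5, with adjusted p-values of 0.0517 to 0.118. Actn3 ran from 176 to 1889 CPM in normal skin, from 73.4 to 451 CPM in healthy wound and from 147 to 3059 CPM in diabetic wound, and its log2 fold change between the wounds was 2.23 (SE 0.83, edgeR adjusted p = 0.0948). Per kb, Actn3 over Actn2 was 0.759 to 3.93 in normal skin, 1.54 to 3.56 in healthy wound and 1.59 to 71.1 in diabetic wound, a ratio also picked after the values were seen.

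Myom1 encodes myomesin, which ties thick filaments together at the M-band. Myom1 had 588, 984, 416, 257 and 81.9 CPM in normal skin replicates 1 to 5, 104, 116, 169, 26 and 35.5 CPM in healthy wound and 127, 108, 36.1, 175 and 106 CPM in diabetic wound. Normal skin replicates 1 to 4 were above every wound library. It was 4.26-fold lower in diabetic wound than in normal skin (−2.09, SE 0.63, edgeR adjusted p = 0.0313) and called in 9 of 15 fits with 1 library left out. The adjusted p was 0.0616, 0.0913, 0.0529, 0.0668, 0.0515 and 0.0684 without normal skin replicates 1 and 2 and diabetic wound replicates 1, 2, 3 and 5. With the replicate number as a block it was 0.109. In healthy wound against normal skin Myom1 was 5.32-fold lower (−2.41, SE 0.63), which edgeR did not call (adjusted p = 0.0742). DESeq2 (0.00281) and limma-voom with quality weights (0.023) called it there. Myom2, the second myomesin gene, was fitted at −2.10 (SE 0.68) in healthy wound and −1.46 (SE 0.66) in diabetic wound and did not pass in edgeR, while DESeq2 called it in healthy wound (adjusted p = 0.0201).

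**Figure D5:**
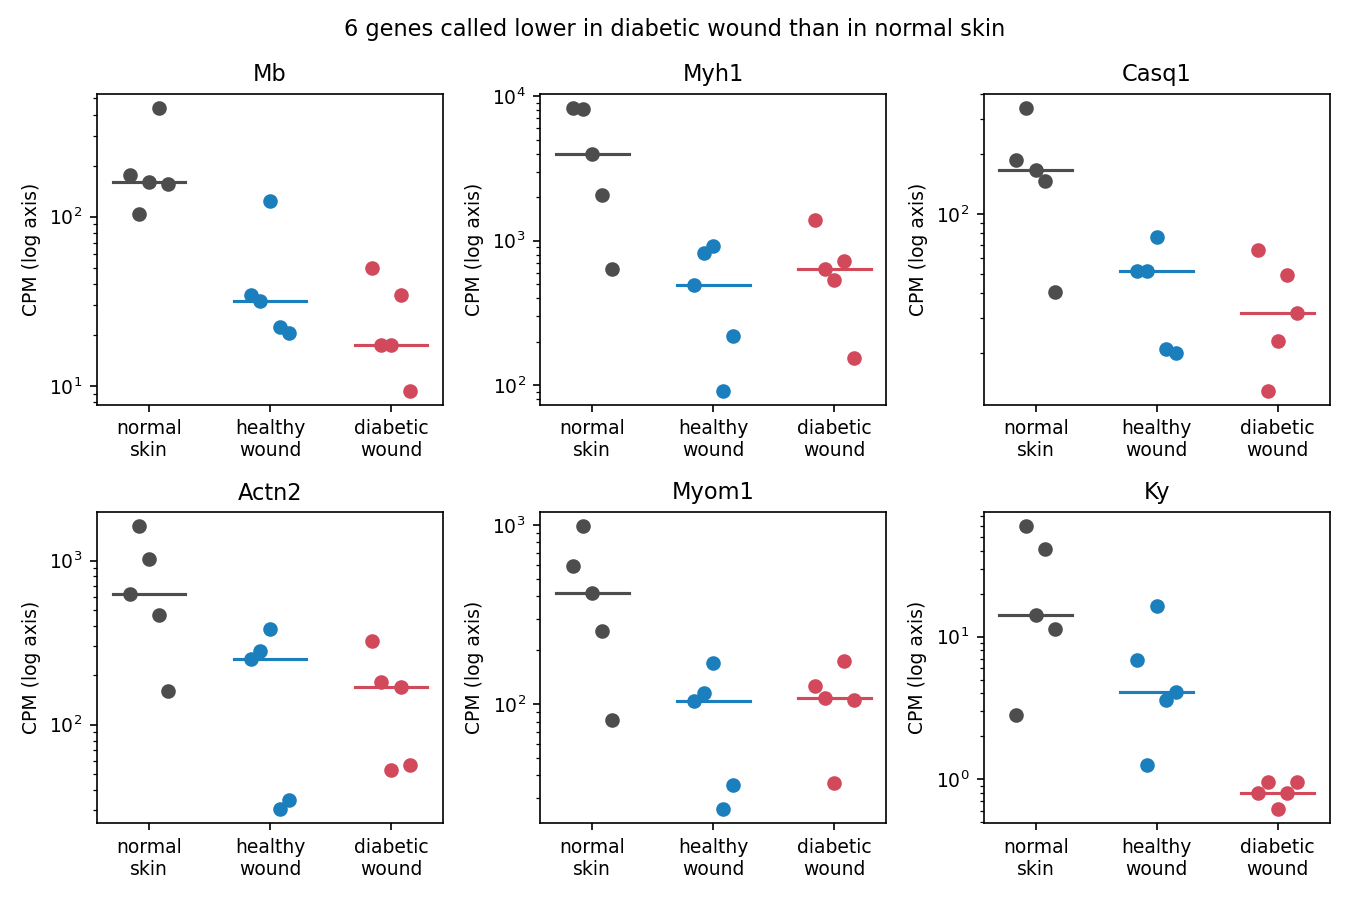
CPM (log axis) of the 6 muscle genes called lower in diabetic wound than in normal skin, in each library; points are replicates 1 to 5 from left to right and the line is the median of 5 libraries. Diabetic wound and normal skin separate for Mb and Ky, while healthy wound overlaps normal skin for both. For the other genes normal skin replicate 5 lies among the diabetic wound libraries.

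Ttn encodes titin, the spring that links the Z-disc to the M-band. Ttn had 2490.3, 3277, 1659, 849 and 261 CPM in normal skin replicates 1 to 5, 491, 672, 657, 81.4 and 96.5 CPM in healthy wound and 463, 1057, 224, 981 and 1021 CPM in diabetic wound. Every wound library was below normal skin replicates 1 to 3. Replicate 5 lay within the range of both wound groups, and replicate 4 within that of diabetic wound alone. Des encodes desmin, the filament that holds neighbouring Z-discs in register and that smooth muscle also makes. Des had 2502, 3043, 2917, 873 and 314 CPM in normal skin, 1325, 1163, 2027, 172 and 166 CPM in healthy wound and 802, 1414, 243, 1874 and 1031 CPM in diabetic wound. Its groups overlapped, and its log2 fold changes against normal skin were −1.03 (SE 0.73) in healthy wound and −0.86 (SE 0.73) in diabetic wound, beside medians of −1.99 and −0.95 over the 36 genes. The other genes of the Z-disc, Xirp2, Myoz1, Myot, Tcap and Ldb3, lay between −1.79 and −2.32 in healthy wound. In diabetic wound they spread from −2.52 for Xirp2 to 0.16 for Myoz1. Myoz1, which encodes a calcineurin-binding Z-disc protein, was 1.95 higher on the log2 scale in diabetic than in healthy wound (SE 0.59) with an edgeR adjusted p of 0.0506, and passed without normal skin replicate 5 (0.04) or diabetic wound replicate 3 (0.0082).

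Atp2a1 encodes the fast fiber calcium pump that refills the sarcoplasmic reticulum. Atp2a1 had 3722, 4303, 3291, 1762 and 463 CPM in normal skin replicates 1 to 5, 752, 762, 1231, 177 and 189.9 CPM in healthy wound and 1419, 3083, 258, 2837 and 3991 CPM in diabetic wound. Normal skin replicates 1 to 4 were above every healthy wound library, while diabetic wound replicates 2, 4 and 5 lay among normal skin replicates 1 to 4. Its log2 fold change was −2.16 (SE 0.72) in healthy wound and −0.23 (SE 0.69) in diabetic wound against normal skin and 1.93 (SE 0.72) between the wounds, with edgeR adjusted p-values of 0.143, 0.834 and 0.0965. Pvalb encodes parvalbumin, a calcium buffer of the fastest fibers. Pvalb had 726, 129.5, 259, 87.5 and 49.3 CPM in normal skin, 38, 35.8, 44.9, 32.5 and 14 CPM in healthy wound and 96.5, 136, 23.1, 158 and 302 CPM in diabetic wound. Every normal skin library was above every healthy wound library, and diabetic wound replicates 1, 2, 4 and 5 were above every healthy wound library too. On the log2 scale Pvalb was fitted at −2.95 (SE 0.72) in healthy wound against normal skin and at 2.14 (SE 0.70) between the wounds, neither past the threshold (edgeR adjusted p = 0.0599 and 0.0632).

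Casq1 encodes calsequestrin, which stores calcium in the sarcoplasmic reticulum of fast fibers. Casq1 had 187, 343, 167, 147 and 40.6 CPM in normal skin replicates 1 to 5, 51.7, 51.7, 77.2, 21.1 and 20 CPM in healthy wound and 66.1, 13, 23.1, 49.6 and 32 CPM in diabetic wound. Normal skin replicates 1 to 4 were above every wound library. Diabetic wound replicates 2, 4 and 5, the highest of their group in Atp2a1 and Myh4, had 13, 49.6 and 32 CPM of Casq1. Replicates 1 and 3 had 66.1 and 23.1 CPM. Casq1 was 4.81-fold lower in diabetic wound than in normal skin (−2.27, SE 0.55, edgeR adjusted p = 0.0135). It passed in all 27 other settings, with adjusted p-values up to 0.0493. In healthy wound against normal skin it was fitted at −2.03 (SE 0.55) without passing in edgeR (adjusted p = 0.0778). DESeq2 (0.00561) and limma-voom with quality weights (0.0209) called it there. Ryr1 encodes the channel that releases calcium from the sarcoplasmic reticulum. Ryr1 had 1348, 2010.1, 1029, 454 and 179.7 CPM in normal skin, 327, 323, 479, 46.3 and 59.8 CPM in healthy wound and 263, 703, 89, 634 and 808 CPM in diabetic wound. Its groups overlapped, and edgeR called it in no comparison, while DESeq2 called it lower in healthy wound against normal skin (adjusted p = 0.0439). Cacna1s, the voltage sensor that opens this channel, was fitted at −2.49 (SE 0.77) in healthy wound and −1.89 (SE 0.75) in diabetic wound against normal skin. Its edgeR adjusted p-values were 0.113 and 0.0859, while DESeq2 called it lower in both (adjusted p = 0.0109 and 0.0288).

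Mb encodes myoglobin, the oxygen-binding protein of oxidative fibers. Mb had 176, 103, 161, 441 and 157 CPM in normal skin replicates 1 to 5, 34.2, 31.6, 124, 22.3 and 20.4 CPM in healthy wound and 49.7, 17.5, 17.5, 34.4 and 9.38 CPM in diabetic wound. All diabetic wound libraries were below all normal skin libraries, and in healthy wound replicate 3 alone reached into the normal skin range. Normal skin replicate 5, which was low in most muscle genes, was not low in Mb, and replicate 4 was the highest. Mb was 7.92-fold lower in diabetic wound than in normal skin (−2.99, SE 0.59, edgeR adjusted p = 0.00533) and passed in all 27 other settings, with adjusted p-values up to 0.0253. Healthy wound gave −2.16 (SE 0.57, edgeR adjusted p = 0.0755) and passed without its replicate 3, in DESeq2 (0.00402) and in limma-voom (0.037). Mb lies on chromosome 15 from 77015487 to 77050670, minus strand, and shares 16.9% of this span with Apol6 on the opposite strand, which had 2496 counts beside 24029 for Mb.

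Ckm encodes the muscle creatine kinase, which buffers ATP. Ckm had 1398, 1177, 1291, 669 and 210.5 CPM in normal skin replicates 1 to 5, 365, 338, 587, 103 and 90.5 CPM in healthy wound and 464, 779.7, 87.2, 1181 and 1767 CPM in diabetic wound. Diabetic wound replicate 5 held the highest level of all libraries and replicate 3 the lowest, and the groups overlapped. The log2 fold change of Ckm was −1.71 (SE 0.70) in healthy wound, −0.15 (SE 0.68) in diabetic wound and 1.56 (SE 0.69) between the wounds, with edgeR adjusted p-values of 0.227, 0.891 and 0.154. Eno3, the muscle enolase of glycolysis, and Pygm, the muscle enzyme that breaks down glycogen, were fitted at −1.44 (SE 0.56) and −1.97 (SE 0.71) in healthy wound and at −1.36 (SE 0.56) and −0.55 (SE 0.69) in diabetic wound. Neither passed in edgeR, where Mb was the single one of the 4 metabolic genes called. DESeq2 called Pygm in healthy wound (adjusted p = 0.0462) and Eno3 in diabetic wound (0.0485) against normal skin.

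Further muscle genes that are not in the set were counted from separate lists. Of 28 other sarcomere genes, all 28 had negative fold changes in healthy wound and 0 passed in edgeR. In diabetic wound against normal skin 7 fell and 0 rose (edgeR adjusted p under 0.05), among them Myom3, another myomesin gene, at −2.81 (SE 0.81), and Dmd, the dystrophin gene, at −1.34 (SE 0.36). Of 16 other genes of excitation and calcium release, 5 fell in diabetic wound against normal skin, with Cacnb1, a subunit of the voltage sensor, at −2.23 (SE 0.61) and Srl, which encodes sarcalumenin, at −2.16 (SE 0.66). Of 16 other muscle metabolism genes, 2 fell: Ckmt2, the mitochondrial creatine kinase of muscle, at −2.25 (SE 0.63) and Pgam2, the muscle phosphoglycerate mutase, at −1.95 (SE 0.56). These counts stand beside 8.44% of all genes tested, and 0 genes of these 3 lists passed in the other comparisons. The medians in diabetic wound against normal skin were −1.11, −1.52 and −1.15.

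Of 9 other genes linked to slow fibers, 1 rose in diabetic wound against normal skin in edgeR's test, a share near the 10.7% of all genes. This was Tpm3, the slow tropomyosin gene, which many other cell types also express, at 504 ± 122 CPM against 257 ± 30.5 CPM (mean ± SD of 5 libraries). Its log2 fold change was 0.99 with an SE of 0.18 and an adjusted p of 0.00337 in edgeR's test. Myl2 and Myl3, the slow myosin light chains, were in the low range of Myh7. Myl2 reached 27.9 CPM in normal skin, 0.792 CPM in healthy wound and 13.2 CPM in diabetic wound. Myl3 reached 31.3, 2.43 and 18.9 CPM in the same order. EdgeR called neither in any comparison.

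Lists of other muscle types were read beside these counts. The 10 smooth muscle genes summed to 657 ± 289 CPM in normal skin, 689 ± 187 CPM in the healthy wounds and 289.5 ± 104 CPM in the diabetic wounds (mean ± SD of 5 libraries). The skeletal muscle share had its lowest mean in healthy wound and the smooth muscle sum in diabetic wound. Of the 10, 5 fell in diabetic against healthy wound, beside 4.02% of all genes, Acta2, the smooth muscle actin gene, by 1.58 on the log2 scale (SE 0.28, edgeR adjusted p = 0.0121). Among 6 cardiac genes, Nppa stayed below 1 CPM in every library, and Myh6 ran from 0 to 176 CPM in normal skin, from 0 to 9.05 CPM in healthy wound and from 0.185 to 11.9 CPM in diabetic wound. Of 10 genes of muscle regeneration and denervation, 3 fell in diabetic wound against normal skin, namely Myh8, Myh3 and Ncam1, and 1, Ncam1, fell against healthy wound (edgeR adjusted p under 0.05), beside 8.44% and 4.02% of all genes.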

How the data were processed

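Poly-A RNA of 15 mouse skin samples (3 groups of 5) was sequenced from unstranded libraries, per the kit the labels name. The authors deposited whole-number read counts per gene in a table of the whole series, which also gives gene positions and lengths. No aligner, counting program or build is named in the labels or the table. Columns DB5 to DB9 were taken as replicates 1 to 5.

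Counts were tested with edgeR 4.0.16 (TMM, filterByExpr, robust quasi-likelihood F-test; limma 3.58.1, R 4.3.3) fitting all 3 groups together (12 residual degrees of freedom). P-values were adjusted by Benjamini-Hochberg over all 17122 genes tested, threshold 0.05. CPM were computed from the deposited counts and each library's total. Ratios of 4 pairs were compared by two-sided exact permutation tests on log2(CPM + 0.5), adjusted over 12 tests. The procedure was tested on simulated data. The other settings tried were scaling by RLE, by upper quartile or by library size, TMM factors without muscle genes, a stricter filter (at least 1 CPM in 5 libraries, mean at least 5 CPM) or no filter on low counts, DESeq2 1.42.0, limma-voom (also with quality weights), a block for the replicate number, fits of 2 groups alone, pseudocounts of 0.1 and 2, the members' share without mitochondrially encoded genes, and each library left out. A fit without both diabetic wound replicates 4 and 5 was added after seeing the data.

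The members, lists, tests and alternatives were chosen with earlier results of these data known. Values in every library are given for the fast and slow partners, 11 further genes fixed by name and every gene called, and the others by ranges and counts; list genes were named from the 3 with the smallest p in a comparison, skin marker genes freely. Of 18 listed metabolic genes 16 were found by symbol. Neutrophil genes (8) summed to 245, 2217 and 2218 CPM on average in normal skin, in healthy and in diabetic wounds. Other gene models overlap 21 members, 5 of them with a protein-coding gene that has counts (Atp2a1, Mb, Myom1, Tnnc1, Tnnc2).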

Additional observations from a re-analysis of the deposited data

Results flagged for a closer look

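In 11 of 117 sets of 5 libraries (36 tested genes and 3 fast to slow ratios in 3 groups), the highest or lowest library stood apart from the other 4 by over 0.71 of the group's range. For independent, normally distributed values chance flags about 1 set in 20. These levels are not known to be normal and the genes share libraries, so that rate may not hold here. Normal skin replicate 2 was high in Myh2 (1549 CPM, others 93.5 to 467), Myh7 (8.16 CPM, others 0 to 1.46), Tnnt1 (42.6 CPM, others 1.46 to 4.56) and Tnni1 (39.8 CPM, others 1.13 to 8.7). Of these 4 genes, 3 are slow fiber genes. Healthy wound replicate 1 was high in Myh7 (1.03 CPM, others 0 to 0.172) and Tnni1 (55.2 CPM, others 5.11 to 19.2). Mb was high in normal skin replicate 4 (441 CPM, others 103 to 176) and in healthy wound replicate 3 (124 CPM, others 20.4 to 34.2). Xirp2 was high in healthy wound replicate 2 (707 CPM, others 30.7 to 221). Mylpf was low in diabetic wound replicate 3 (98.6 CPM, others 408 to 532), and Myoz1 was low in normal skin replicate 5 (25.6 CPM, others 102 to 125).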

How the results depend on the processing

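In healthy wound against normal skin, 0 genes were called lower, but 19 with DESeq2, 10 and 1 with limma-voom with and without quality weights, 1 with 2 groups alone, 2 without diabetic wound replicates 4 and 5 together, and 0 to 2 with each library left out. In diabetic wound against normal skin the 6 lower calls became 3 without a low-count filter, with quality weights or without those 2 replicates together, 13 with DESeq2, and 3 to 10 with each library left out. Between the wounds the 1 lower call became 0 without a low-count filter, with either limma-voom fit, with the replicate block or without those 2 replicates together, and 0 to 1 with each library left out, while 0 higher calls became 6 with DESeq2 and 0 to 6 with each library left out. The count of genes called higher was 0 in every leave-one-out fit of the comparisons with normal skin. Of the fold changes compared between the main fit and each leave-one-out fit, 8, 16 and 26 changed sign in the 3 comparisons, and 527, 496 and 497 kept direction and call. The causes were not tested. Depth limits Ky in diabetic wound, with 10 to 16 counts in each library, and Myh7 in the other groups and in diabetic wound replicates 1, 3 and 5.

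The replicate number is not stated to pair the libraries. Of 15 pairs 5 had a correlation of deviations over 0.1, and 1 library correlated best with its own number. With 5 libraries in each group these correlations cannot exclude pairing. With the replicate block the lower calls were 0, 5 and 0 in the 3 comparisons, and signs turned for Ckm (0.14) and Atp2a1 (0.16) in diabetic wound against normal skin and for Tnnt1 (−0.88), Actn2 (0.13) and Xirp2 (0.71) between the wounds.

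Signs also turned for genes that were not called. With limma-voom, diabetic wound against normal skin gave Myoz1 −0.15 and Mybpc2 −0.05, and between the wounds Tnnt1 −0.37, Actn2 0.03 and Xirp2 0.41. With quality weights Myh7 was 0.29 in healthy wound against normal skin, Tnni1 0.54, Myoz1 −0.30 and Mybpc2 −0.07 in diabetic wound against normal skin, and Tnnt1 −0.02, Actn2 0.08, Eno3 −0.08, Xirp2 0.69 and Ldb3 −0.09 between the wounds. Mybpc2 was −0.01 with upper-quartile scaling. Without diabetic wound replicates 4 and 5 together, Actn3 was −0.53, Myoz1 −0.59 and Mybpc2 −0.47 against normal skin, and Acta1 −0.27, Eno3 −0.14, Des −0.20 and Ldb3 −0.23 against healthy wound. The Myh4 to Myh7 ratio in healthy wound against normal skin was −0.32 with CPM + 2.

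With each library left out, the values ran in healthy wound against normal skin from −0.40 to 1.96 for Tnnt1, −0.30 to 2.23 for Tnni1 and −0.11 to 1.45 for Tnnc1. In diabetic wound against normal skin they ran from −0.16 to 2.27 for Tnnt1, −1.39 to 0.91 for Tnni1, −0.24 to 0.70 for Actn3, −0.60 to 0.14 for Ckm, −1.28 to 0.15 for Pvalb, −0.52 to 0.06 for Atp2a1, −0.23 to 0.45 for Myoz1 and −0.22 to 0.42 for Mybpc2. Between the wounds they ran from −0.11 to 0.58 for Acta1, −0.24 to 0.78 for Tnnt1, −0.01 to 1.32 for Tnnc1, −0.74 to 0.12 for Actn2, −0.57 to 0.06 for Casq1, −0.14 to 0.58 for Eno3, −0.51 to 0.73 for Xirp2, −0.14 to 0.56 for Mybpc1, −0.11 to 0.64 for Des and −0.45 to 0.47 for Ldb3. The Myh4 to Myh7 ratio ran from −0.76 to 0.62 in healthy wound against normal skin and Tnnc2 to Tnnc1 from −0.87 to 0.05 between the wounds. In healthy wound against normal skin Tnnt3 to Tnnt1 ran from −3.22 to −2.01 and Tnni2 to Tnni1 from −3.44 to −2.38.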
